A study of Mus musculus with 6 samples.

Results

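The TGF-beta signalling genes described here were 10 genes chosen by name for their place in the pathway: the ligands Tgfb1 and Tgfb2, the receptors Tgfbr1 and Tgfbr2, the SMAD proteins Smad2, Smad3, Smad4 and Smad7, and the activation genes Nrros and Itgb8. They were matched by symbol to 10 of the 53379 gene identifiers in the count files, and all 10 passed the filter on low counts, among 17221 genes tested. RNA sequencing was done on 6 libraries from the cerebral cortex of C57BL/6 mice aged 2 months. The libraries labelled GTF2ird1-/- were replicates 5, 6 and 7, from mice with both copies of Gtf2ird1, a transcription factor gene, mutated. The wild type libraries were replicates 1, 3 and 4. The series title names the material as Gad2+ neurons, that is, cells that express Gad2, an enzyme that makes GABA. The sources used here do not give the mutated part of Gtf2ird1 or the method of cell isolation. Nothing states that the libraries of a group are from different mice, and their spread, which every p-value here is set against, may be technical.

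TGF-beta ligands are secreted in a latent form, bound to their own propeptide. A milieu molecule tethers this latent complex to a cell surface or the matrix, and an integrin can open it. The free ligand joins a type 2 receptor (Tgfbr2) to a type 1 receptor (Tgfbr1), which phosphorylates Smad2 and Smad3. These bind Smad4 and act on genes in the nucleus, among them Smad7, which shuts the receptors down. In the mouse brain, microglia, the resident macrophages, need this pathway to keep their mature identity.

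Microglial markers were far above GABAergic neuron markers in all 6 libraries, although the title names neurons. The 14 microglia markers summed to between 29098 and 36073 CPM in the libraries labelled GTF2ird1-/- and between 28250 and 45238 CPM in wild type. CPM are counts scaled to a common library total, here after TMM scaling, which adjusts for composition. The 7 GABAergic markers summed to between 254 and 490 CPM in the libraries labelled GTF2ird1-/- and between 128.5 and 503.5 CPM in wild type. Of 7 markers of blood leukocytes, 6 were at 0 in some library and 2, Ms4a1 among them, in every library. Ccr2, at 2.10 to 8.03 CPM, made up nearly all of the list's sum. Gtf2ird1 itself averaged 46.4 ± 4.99 CPM in the libraries labelled GTF2ird1-/- and 35.9 ± 15.1 CPM in wild type (SD, n = 3 each), and its log2 fold change was 0.37 ± 0.29 (SE, by edgeR; adjusted p = 0.703). A count over the whole gene does not check the labels where the mutated part is unknown. On the first principal component, 50.5% of the variance, wild type replicate 1 lay at -14.65, beside the libraries labelled GTF2ird1-/- (-49.89 to -20.05) and apart from wild type replicates 3 and 4 (59.25 and 50.95). Wild type replicate 3 was the smallest library and stood apart in quality: 72.1% of its reads fell on lines naming no gene and 14.45% were ambiguous, where the other 5 libraries had at most 60.89% and 8.634%. The rRNA genes, with Gm26917 and Lars2, took 18.5% of its gene counts and 0.812% to 6.72% of those of the others. Wild type replicate 1 had the lowest share of reads on lines naming no gene, 42.28%, and of rRNA genes, 0.812%, so these shares gave no reason to leave it out. Leaving out the wild type library nearest to the other group tends to widen the difference between groups. Calls made without it are therefore a description and not independent support. Values without wild type replicate 1 or 3 stand beside several results that they moved.

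By length-scaled level, Tgfbr1 stood far above the other 9 genes. Levels of different genes were compared as CPM per kb of merged exons. Over the 6 libraries Tgfbr1 averaged 402 CPM per kb, Tgfbr2 62.2, Nrros 49.2, Smad7 33.6, Smad3 29.3, Tgfb1 25.7, Smad4 22.6, Smad2 8.01, Itgb8 4.27 and Tgfb2 0.707 CPM per kb. Tgfbr1 ranked between 29 and 41 among 13686 protein-coding genes in every library, and Tgfb2 between 11255 and 12380. Neighbours in the middle of this order exchanged places between libraries. Smad3, for example, ranked between 733 and 1740, and Tgfb1 between 769 and 2443.

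**Figure D1:**
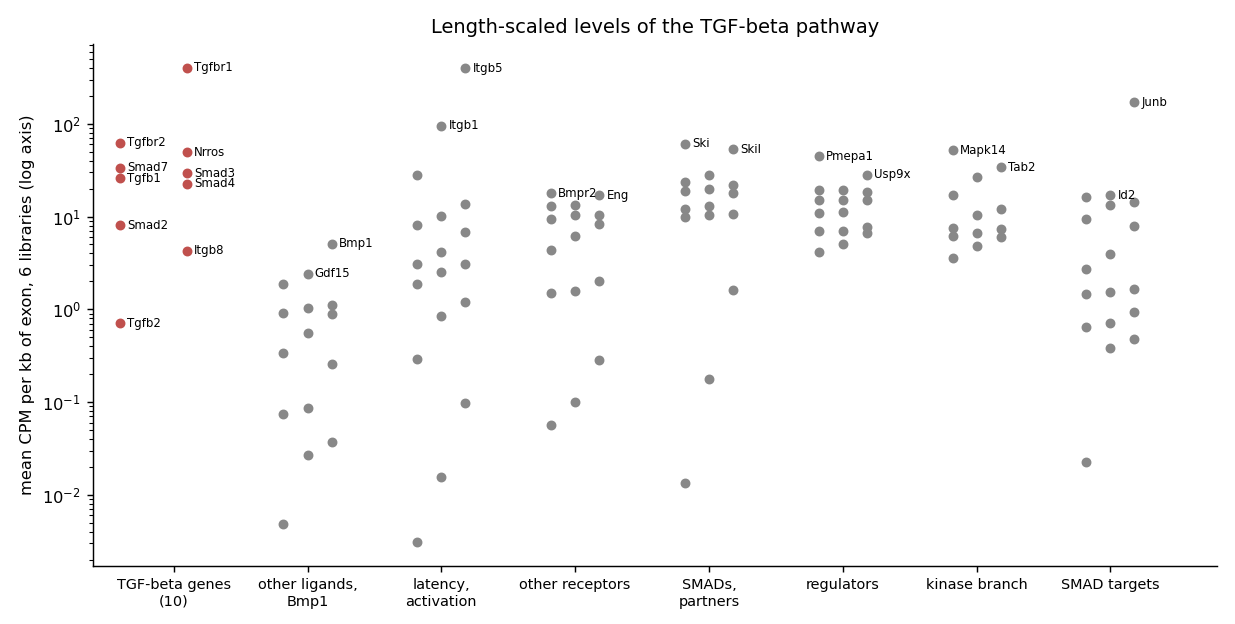
Mean length-scaled level over the 6 libraries (CPM per kb of merged exons, log axis) for the 10 TGF-beta genes (red, all named) and for other genes of the pathway by list (grey, the 2 highest of each list named). Each point is 1 gene, a gene with no count is not drawn, and horizontal offsets only separate points. Tgfbr1, at 402 CPM per kb, lies level with Itgb5, and Tgfb2, at 0.707, is the lowest of the 10.

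No gene of the 10 passed an edgeR adjusted p of 0.05 between the groups, where 1 of all 17221 genes tested, or 0.00581%, did. At an unadjusted p under 0.05, 2 of the 10 were higher (Tgfb2 and Itgb8) and 1 lower (Nrros) in the libraries labelled GTF2ird1-/-. Of all genes tested, 7.25% passed that threshold, 4.48% as higher and 2.77% as lower. With TMM scaling the same 3 genes had groups that did not overlap, 2 of 10 higher and 1 of 10 lower, against 6.34% and 6.68% of all genes, or 13% in either direction. With 10 genes these shares rest on single genes, and the following paragraphs give each gene's values.

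**Figure D2:**
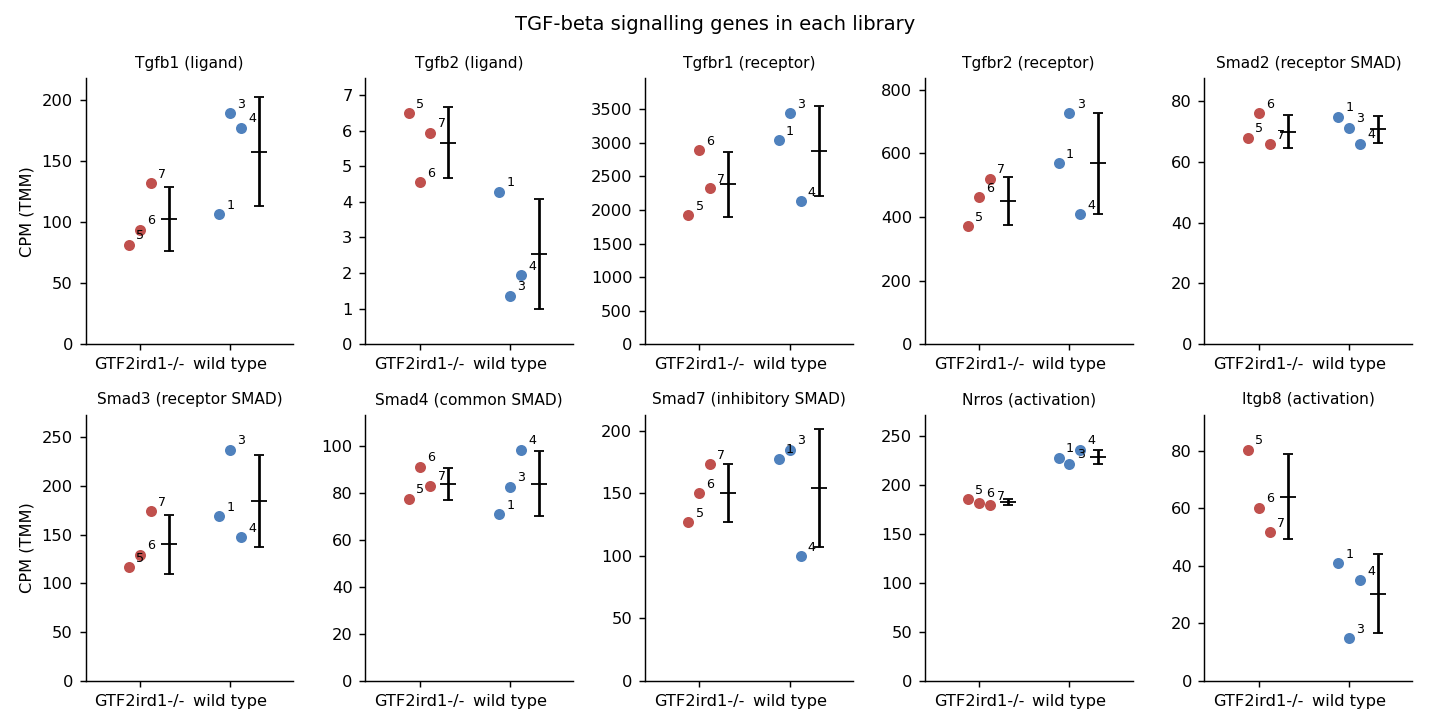
Level of each gene in each library (CPM after TMM scaling, axes from 0). Points are libraries labelled with their replicate number, GTF2ird1-/- in red and wild type in blue, and black bars give the mean ± SD of each group (n = 3). On this scale the groups do not overlap for Tgfb2, Itgb8 and Nrros, and overlap for the other 7 genes.

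Among the ligands, Tgfb1 made up most TGF-beta transcripts in both groups. Tgfb1 (ENSMUSG00000002603.15, chr7:25687002-25705077, plus strand, GRCm38) encodes the isoform that microglia make and respond to. It had 81.2, 93.7 and 131 CPM in GTF2ird1-/- replicates 5, 6 and 7, against 106, 189 and 177 CPM in wild type replicates 1, 3 and 4. Wild type replicate 1 lay inside the range of the libraries labelled GTF2ird1-/-, and the other two wild type libraries lay above it. The means were 102 ± 26.2 CPM in the libraries labelled GTF2ird1-/- and 157 ± 44.6 CPM in wild type (SD, n = 3 each), giving log2 fold change -0.62 ± 0.27 (SE; 95% interval -1.25 to 0.00; edgeR unadjusted p = 0.05003, adjusted p = 0.637). Without wild type replicate 1 the log2 fold change was -0.84 (edgeR adjusted p = 0.111). In bulk RNA, fewer cells of a type and less RNA per cell cannot be told apart.

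Tgfb2 (ENSMUSG00000039239.14, chr1:186622792-186705989, minus strand), the isoform that in the mouse brain is known from astrocytes and neurons, was the least abundant of the 10 genes. Its counts were 166, 76 and 190 in GTF2ird1-/- replicates 5, 6 and 7, and 123, 15 and 34 in wild type replicates 1, 3 and 4. These gave 6.49, 4.55 and 5.94 CPM in the libraries labelled GTF2ird1-/-, against 4.28, 1.36 and 1.94 CPM in wild type. All libraries labelled GTF2ird1-/- lay above all wild type libraries, although wild type replicate 1 was close to GTF2ird1-/- replicate 6. The log2 fold change was 1.13 ± 0.45 (SE; 95% interval 0.07 to 2.19; edgeR unadjusted p = 0.0390, adjusted p = 0.637). Without wild type replicate 1 it was 1.76 (edgeR adjusted p = 0.0601), and without wild type replicate 3, the lowest library, 0.86. An antisense gene, Gm29491, shares 124 of the 5791 exon bases of Tgfb2, and its own count was between 0 and 5. The strand setting is unknown, so reads in those bases cannot be told apart.

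The third isoform, Tgfb3, which is not among the 10, allowed the ligand pool to be read as shares. By length-scaled counts, Tgfb1 held 86.4%, 89.4% and 92.4% of the ligand transcripts in GTF2ird1-/- replicates 5, 6 and 7, and 93.7%, 97.7% and 96.5% in wild type replicates 1, 3 and 4. The groups did not overlap, and wild type replicate 1 was the nearest to the libraries labelled GTF2ird1-/-. The mean difference was -6.58 percentage points (exact permutation test, two-sided p = 0.1, the smallest that 3 against 3 can give; adjusted p = 0.3 over 3 ratios tested). As a share of raw ligand counts, Tgfb2 was 7.02% in GTF2ird1-/- replicate 5 (exact Clopper-Pearson 95% interval 6.02 to 8.12%) and 0.706% in wild type replicate 3 (0.396 to 1.16%), the highest and the lowest of the 6 libraries. These intervals cover counting error only.

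The receptors were the most abundant of the 10 genes, and neither differed between the groups beyond the spread of libraries. Tgfbr1 (ENSMUSG00000007613.15, chr4:47353222-47414931, plus strand), the type 1 receptor kinase, had 1925, 2891 and 2329 CPM in GTF2ird1-/- replicates 5, 6 and 7, against 3042, 3445 and 2134 CPM in wild type replicates 1, 3 and 4. Wild type replicate 3 was the highest and GTF2ird1-/- replicate 5 the lowest, with the groups overlapping between them. The log2 fold change was -0.27 ± 0.25 (SE; 95% interval -0.87 to 0.32; edgeR adjusted p = 0.743). It was -0.11 without wild type replicate 3, -0.14 without GTF2ird1-/- replicate 5, and -0.43 and -0.44 without GTF2ird1-/- replicate 6 and wild type replicate 4. Tgfbr2 (ENSMUSG00000032440.13, chr9:116084293-116175360, minus strand), the type 2 receptor that binds the ligand first, had 371, 462 and 520 CPM in GTF2ird1-/- replicates 5, 6 and 7, against 569, 726 and 409 CPM in wild type replicates 1, 3 and 4. Wild type replicate 4 again lay within the range of the other group. The log2 fold change was -0.33 ± 0.24 (SE; 95% interval -0.90 to 0.23; edgeR adjusted p = 0.688). It was -0.11 without wild type replicate 3, -0.21 without GTF2ird1-/- replicate 5 and -0.52 without wild type replicate 4. Scaled to the microglia markers, the values with all libraries were -0.04 for Tgfbr1 and -0.09 for Tgfbr2. That setting moved the median of all genes from -0.03 to 0.17, so both receptors stayed below it.

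Per length, Tgfbr1 exceeded Tgfbr2 by between 5.62 and 7.84 times in every library. The log2 ratio of Tgfbr1 to Tgfbr2 was 2.70, 2.97 and 2.49 in GTF2ird1-/- replicates 5, 6 and 7, and 2.74, 2.57 and 2.71 in wild type replicates 1, 3 and 4. The group means were 2.72 ± 0.24 in the libraries labelled GTF2ird1-/- and 2.67 ± 0.09 in wild type (SD, n = 3 each; exact permutation test, two-sided p = 0.9, adjusted p = 0.9 over 3 ratios). This ratio does not depend on library scaling.

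Promoter windows of Tgfbr1, Tgfbr2 and Nrros are shown because these genes have the highest length-scaled levels of the 10. Each is the 250 bases before the RefSeq start in GRCm38.p6, chr4:47352972-47353221 on the plus strand for Tgfbr1, chr16:32165595-32165844 on the minus strand for Nrros and chr9:116175364-116175613 on the minus strand for Tgfbr2, 5′ to 3′. Capitals mark GAGGAA, a core of sites of the macrophage factor PU.1, and CAGAC, a core of SMAD-binding sites, each searched on both strands.
Tgfbr1: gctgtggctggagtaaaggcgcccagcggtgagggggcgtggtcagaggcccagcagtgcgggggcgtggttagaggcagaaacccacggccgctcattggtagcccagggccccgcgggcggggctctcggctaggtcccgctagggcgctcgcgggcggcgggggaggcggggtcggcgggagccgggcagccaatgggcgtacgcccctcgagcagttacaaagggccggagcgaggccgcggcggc
Nrros: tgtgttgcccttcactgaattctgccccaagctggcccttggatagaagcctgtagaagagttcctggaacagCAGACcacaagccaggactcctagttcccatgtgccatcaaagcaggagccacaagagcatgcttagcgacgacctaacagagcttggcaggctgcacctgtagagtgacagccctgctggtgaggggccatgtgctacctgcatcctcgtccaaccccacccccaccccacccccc
Tgfbr2: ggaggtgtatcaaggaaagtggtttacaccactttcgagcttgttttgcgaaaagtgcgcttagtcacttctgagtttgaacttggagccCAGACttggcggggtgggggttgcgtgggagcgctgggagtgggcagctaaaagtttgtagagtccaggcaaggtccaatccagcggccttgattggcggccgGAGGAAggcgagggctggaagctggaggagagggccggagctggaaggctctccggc
The Tgfbr1 window had 74.8% G and C, more than 95.8% of the 32851 windows in the table, and the Tgfbr2 and Nrros windows had 58.4% each, where the median was 52.4%. GAGGAA was found once in the Tgfbr2 window and not in the other two, and 23.3% of all windows held it. CAGAC was found once each in the Tgfbr2 and Nrros windows and not in that of Tgfbr1, and 42.2% of all windows held it. The longer palindrome GTCTAGAC was in none of the 3, and in 0.167% of all windows. A second annotated start of Tgfbr1, inside the gene, has its own window and is not shown.

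The SMAD genes showed 2 patterns of variation, with Smad2 and Smad4 even across libraries and Smad3 and Smad7 less so. Smad2 (ENSMUSG00000024563.15, chr18:76241580-76310963, plus strand), a SMAD phosphorylated by the receptor, had 68.0, 76.1 and 65.8 CPM in GTF2ird1-/- replicates 5, 6 and 7, against 74.8, 71.2 and 66.0 CPM in wild type replicates 1, 3 and 4. The libraries of both groups were interleaved, and the log2 fold change was -0.02 ± 0.12 (SE; 95% interval -0.31 to 0.28; edgeR adjusted p = 0.973). Smad4 (ENSMUSG00000024515.13, chr18:73639009-73703780, minus strand), the shared partner of the receptor SMADs, had 77.6, 91.1 and 83.2 CPM in GTF2ird1-/- replicates 5, 6 and 7, against 71.0, 82.7 and 98.4 CPM in wild type replicates 1, 3 and 4. Both the lowest and the highest library were wild type, and the 95% interval of the log2 fold change ran from -0.36 to 0.36 (edgeR adjusted p = 0.998).

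Smad3 (ENSMUSG00000032402.12, chr9:63646767-63757994, minus strand), the other receptor SMAD, was per length about as abundant as Smad7 and above Smad2, at 25.3 CPM per kb in the libraries labelled GTF2ird1-/- and 33.3 CPM per kb in wild type, against 7.97 and 8.05 CPM per kb for Smad2. Its level was 116, 130 and 174 CPM in GTF2ird1-/- replicates 5, 6 and 7, and 169, 237 and 147 CPM in wild type replicates 1, 3 and 4. Wild type replicate 3 stood above the rest and GTF2ird1-/- replicate 7 lay among the wild type libraries. The log2 fold change was -0.40 ± 0.23 (SE; 95% interval -0.93 to 0.14; edgeR adjusted p = 0.648). It was -0.17 without wild type replicate 3 and -0.57 without GTF2ird1-/- replicate 7.

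Smad7 (ENSMUSG00000025880.11, chr18:75367529-75395935, plus strand), the inhibitory SMAD and itself a target of the pathway, had 127, 150 and 173 CPM in GTF2ird1-/- replicates 5, 6 and 7, against 178, 185 and 99.6 CPM in wild type replicates 1, 3 and 4. Wild type replicate 4 was the lowest of all 6 libraries. The log2 fold change was -0.04 ± 0.25 (SE; 95% interval -0.63 to 0.55; edgeR adjusted p = 0.966). Without wild type replicates 1, 3 and 4 in turn it was 0.08, 0.12 and -0.27. The log2 ratio of Smad7 to Smad3 per length was 0.41, 0.50 and 0.29 in GTF2ird1-/- replicates 5, 6 and 7, and 0.36, -0.07 and -0.27 in wild type replicates 1, 3 and 4. It averaged 0.40 ± 0.11 in the libraries labelled GTF2ird1-/- and 0.01 ± 0.32 in wild type, with wild type replicate 1 inside the range of the other group (SD, n = 3 each; exact permutation test, two-sided p = 0.2, adjusted p = 0.3 over 3 ratios). The difference of 0.39 was 0.57 without wild type replicate 1 and 0.25 without wild type replicate 4.

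The activation genes Nrros and Itgb8 both had groups that did not overlap with TMM scaling, in opposite directions, and for Nrros this was lost with library totals alone. Nrros (ENSMUSG00000052384.13, chr16:32142785-32165594, minus strand) encodes the surface protein that holds latent TGF-beta1 on microglia in mice. It had 185, 182 and 180 CPM in GTF2ird1-/- replicates 5, 6 and 7, against 228, 222 and 236 CPM in wild type replicates 1, 3 and 4. With TMM scaling, the highest library labelled GTF2ird1-/- lay below the lowest wild type library. The means were 182 ± 2.92 CPM in the libraries labelled GTF2ird1-/- and 228 ± 7.13 CPM in wild type (SD, n = 3 each), giving log2 fold change -0.33 ± 0.12 (SE; 95% interval -0.60 to -0.05; edgeR unadjusted p = 0.0258, adjusted p = 0.637). The direction was kept when each library was left out, at -0.34 to -0.30 (edgeR adjusted p between 0.268 and 1). With library totals alone the groups overlapped, at 206, 182 and 188 CPM in GTF2ird1-/- replicates 5, 6 and 7, against 226, 179.5 and 249.5 CPM in wild type replicates 1, 3 and 4, so that wild type replicate 3 was the lowest of all. The overlap rested on that library. Its total includes the 18.5% of counts from rRNA genes, Gm26917 and Lars2, and its TMM factor was 0.8106, the lowest of all libraries. The groups of Tgfb2 and Itgb8 did not overlap with library totals alone, as with TMM scaling. For Nrros the log2 fold change was -0.19 with library totals alone and -0.14 with libraries scaled to the microglia markers, settings that moved the median of all genes to 0.11 and 0.17.

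Itgb8 (ENSMUSG00000025321.14, chr12:119158022-119238802, minus strand) encodes the beta subunit of the integrin that opens the latent complex, and in the mouse brain is known from astrocytes, precursor cells and neurons. It had 80.4, 60.3 and 51.8 CPM in GTF2ird1-/- replicates 5, 6 and 7, against 41.0, 14.9 and 35.1 CPM in wild type replicates 1, 3 and 4. All libraries labelled GTF2ird1-/- lay above all wild type libraries, and wild type replicate 3, the library that stood apart in quality, was far below the others. The part of that library's quality in its value was not tested. The means were 64.1 ± 14.7 CPM in the libraries labelled GTF2ird1-/- and 30.3 ± 13.6 CPM in wild type (SD, n = 3 each), giving log2 fold change 1.07 ± 0.36 (SE; 95% interval 0.23 to 1.91; edgeR unadjusted p = 0.0192, adjusted p = 0.637). It had the smallest unadjusted p of the 10. Leaving out each library gave between 0.76, without wild type replicate 3, and 1.35, without wild type replicate 1 (edgeR adjusted p between 0.124 and 1).

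**Figure D3:**
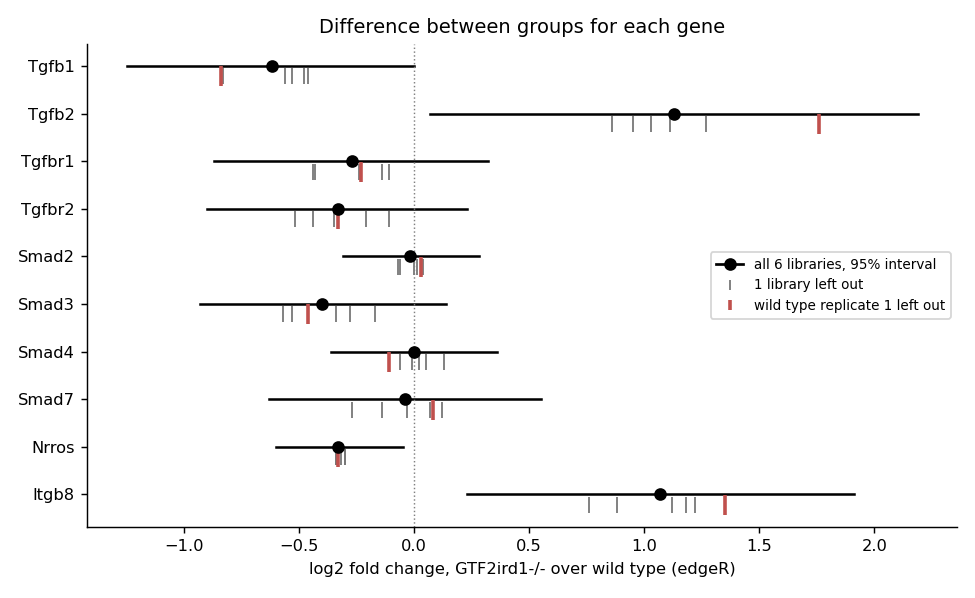
Log2 fold change of each gene, libraries labelled GTF2ird1-/- over wild type (edgeR). Black points and lines give the value and 95% interval with all 6 libraries, grey ticks the value with 1 library left out, and red ticks the value without wild type replicate 1. Intervals exclude 0 for Tgfb2, Itgb8 and Nrros before adjustment over all genes, and the red tick of Tgfb2, at 1.76, is the farthest from its value with all libraries.

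Transcripts of astrocytes, oligodendrocytes and their precursors, vessels and neurons were also higher on average in the libraries labelled GTF2ird1-/-, as Tgfb2 and Itgb8 were. The 14 microglia markers went the other way, with 0 of 14 positive and a median of -0.24. The 10 astrocyte markers, led by the glutamate transporters Slc1a2 and Slc1a3, summed to 6296, 3514 and 3937 CPM in GTF2ird1-/- replicates 5, 6 and 7, and to 3595, 618 and 287 CPM in wild type replicates 1, 3 and 4. The 6 oligodendrocyte precursor markers, led by Gpr17 and Pdgfra, summed to 286, 226 and 137 CPM in the libraries labelled GTF2ird1-/-, and to 173, 6.80 and 62.7 CPM in wild type. The 9 oligodendrocyte markers, among them the myelin gene Mbp, summed to 2407, 2018 and 2433 CPM in the libraries labelled GTF2ird1-/-, and to 2409, 550 and 168 CPM in wild type. GTF2ird1-/- replicate 5 was the highest library for Tgfb2, Itgb8, the astrocyte sum and the precursor sum. Wild type replicate 3 was the lowest for Tgfb2, Itgb8 and the precursor sum, and wild type replicate 4 for the astrocyte and oligodendrocyte sums. No marker of these 3 lists was at 0 in any library. All 10 astrocyte, 9 oligodendrocyte and 6 precursor markers were higher on average, and the medians of their log2 fold changes were 1.80, 1.34 and 1.39, against -0.03 over all genes tested. Without wild type replicate 1 the medians were 3.14, 2.78 and 2.42. They were 1.53, 1.09 and 0.87 without wild type replicate 3, and 1.30, 0.97 and 1.20 without wild type replicate 4. None of these markers passed an edgeR adjusted p of 0.05, and without wild type replicate 1 there were 6, 5 and 1 that did, all higher, where 1.77% of all genes were called higher. The 9 endothelial and mural markers summed to 217, 139 and 180 CPM in GTF2ird1-/- replicates 5, 6 and 7, and to 149, 89.9 and 56.4 CPM in wild type replicates 1, 3 and 4, with 7 of 8 tested positive and a median of 1.02. Neuron markers were also higher on average, 6 of 6 general markers with a median of 0.44 and 7 of 7 GABAergic markers with 0.53. Leaving out 1 library gave medians of 0.15 to 0.79 and of 0.13 to 1.56. The fewest positive were 4 of 6 general markers, without wild type replicate 3, and 4 of 7 GABAergic markers, without wild type replicate 1 or 3. The libraries were ordered otherwise for these lists. The 6 general neuron markers summed to 386, 280 and 198 CPM in the libraries labelled GTF2ird1-/-, and to 170, 103 and 241 CPM in wild type. The 7 GABAergic markers summed to 490, 330 and 254 CPM in the libraries labelled GTF2ird1-/-, and to 128.5, 141 and 503.5 CPM in wild type, with wild type replicate 4 the highest of all. The part of these cells in the values of Tgfb2 and Itgb8 was not tested.

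**Figure D4:**
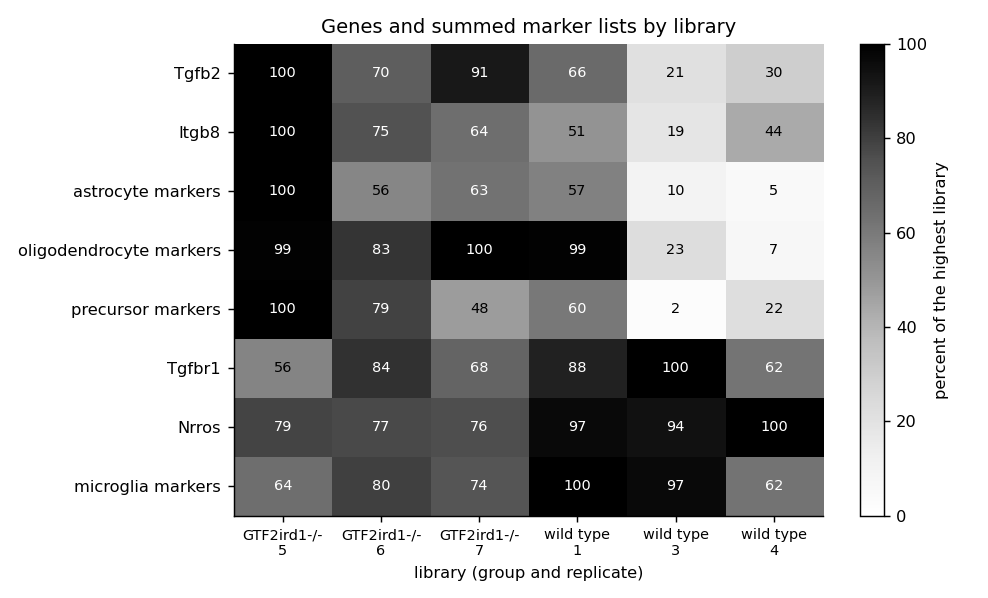
Level in each library as a percentage of the highest library of its row (CPM after TMM scaling; darker is higher), for 4 genes and for 4 summed marker lists, libraries labelled GTF2ird1-/- on the left and wild type on the right. Tgfb2 and Itgb8 are at 20.9% and 18.6% of their highest library in wild type replicate 3, where the precursor markers are at 2.37%. Nrros stays between 76.1% and 100% in every library.

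Genes with the most similar profiles across the libraries were also listed. For each gene with more than a 2-fold range, the nearest of 12907 protein-coding genes were taken by the root mean square difference of centred log2(CPM + 0.5) over the 6 libraries. With 6 points and many genes, close neighbours are found for any profile, so this is a description. For Tgfb2 they were Adamts4 and Galnt16, at 0.0748 and 0.0824 log2 units. Adamts4 encodes a protease of the extracellular matrix and had 18.3, 12.9 and 18.6 CPM in GTF2ird1-/- replicates 5, 6 and 7, and 12.6, 5.08 and 5.94 CPM in wild type replicates 1, 3 and 4. For Itgb8 they were Prom1, which encodes the membrane protein prominin 1, and Bdh1, an enzyme of ketone body metabolism, at 0.0545 and 0.0645. Prom1 had 17.3, 12.9 and 10.5 CPM in the libraries labelled GTF2ird1-/-, and 8.77, 2.63 and 6.85 CPM in wild type. For Tgfb1 they were Dennd4b and Nhsl2, at 0.0686 and 0.0693. For Smad3 they were C5ar1, the receptor for complement C5a, and Pik3ap1, an adaptor of phosphoinositide 3-kinase in immune cells, at 0.0519 and 0.0608. Pik3ap1 had 127, 148 and 184 CPM in the libraries labelled GTF2ird1-/-, and 195, 262 and 178 CPM in wild type.

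The wider pathway was read from 9 lists holding 153 other genes, of which 141 were tested and 0 passed edgeR's adjusted threshold. At an unadjusted p under 0.05, 13 of the 141 were higher and 1 lower in the libraries labelled GTF2ird1-/-, where 4.48% of all genes were higher and 2.77% lower. Without wild type replicate 1, 7 of the 141 passed as higher and 0 as lower, against 1.77% of all genes higher in that setting. These 7 were Bmp7, Ltbp1, Bmpr1b, Col1a1, Col1a2, Ccn1 and Bhlhe40. Wild type replicate 1 was the wild type library nearest to the other group on the first principal component, so such calls were favoured by leaving it out. That setting keeps only wild type replicates 3 and 4, and replicate 3 stood apart in quality. DESeq2 called 0 of the 141.

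The list of other ligands of the family, which also holds the protease Bmp1, was at low levels. Of its 16 genes, 11 were tested, and the log2 fold change was positive in all 11. It was positive in 8 of 11 without wild type replicate 4, in 10 without GTF2ird1-/- replicate 7 and in 11 without each other library. Their median was 1.06 (0.71 to 1.44 when 1 library was left out), where the median of all genes was -0.03 and 46.3% were positive. Tgfb3 had 4.81, 4.79 and 3.84 CPM in GTF2ird1-/- replicates 5, 6 and 7, and 2.33, 2.17 and 3.20 CPM in wild type replicates 1, 3 and 4 (edgeR adjusted p = 0.637). Gdf10, a growth factor of the family, had counts of 93, 40 and 88 in the libraries labelled GTF2ird1-/-, and 30, 7 and 2 in wild type. Bmp7 had counts of 208, 73 and 176 in the libraries labelled GTF2ird1-/-, and 75, 5 and 14 in wild type. Inhbb, a subunit of activin B, had counts of 129, 37 and 93 in the libraries labelled GTF2ird1-/-, and 47, 10 and 27 in wild type. Groups did not overlap for these 4 genes, and wild type replicate 1 was the highest wild type library in each except Tgfb3. In the list, 6 of 11 tested genes were higher without overlap, against 6.34% of all genes. Gdf10, Bmp7 and Inhbb were named for the smallest p-values of the list, so a lack of overlap was likely for them from the choice. Their log2 fold changes were 0.80, 2.24, 2.14 and 1.29 (edgeR adjusted p = 0.637 for each). For Bmp7 it was 3.21 without wild type replicate 1 (edgeR adjusted p = 0.0378). The highest per length in the list were Bmp1, which cleaves procollagen and is not a ligand of the family, at 5.095 CPM per kb, and the ligand Gdf15 at 2.41 CPM per kb. The sums of astrocyte, oligodendrocyte and precursor markers given above moved in the same direction, and the part of these cells in these values was not tested.

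Among 18 other genes of latency and activation, 15 were tested, with a median of -0.10 and 6 positive. Itgb5 and Itgb1, integrin beta subunits that pair with the alpha v chain, were the highest per length, at 397 and 95.8 CPM per kb. Itgb5 had 1125, 1308 and 1295 CPM in GTF2ird1-/- replicates 5, 6 and 7, and 1674, 1866 and 1187 CPM in wild type replicates 1, 3 and 4 (log2 fold change -0.34 ± 0.21, SE; edgeR adjusted p = 0.661). Ltbp1, which tethers latent TGF-beta to the matrix, had 19.2, 10.1 and 11.4 CPM in the libraries labelled GTF2ird1-/-, and 8.28, 2.99 and 1.88 CPM in wild type (log2 fold change 1.60 ± 0.55, SE; edgeR adjusted p = 0.637). Without wild type replicate 1 its log2 fold change was 2.50 (edgeR adjusted p = 0.0414). Fbn1, the fibrillin that binds these tethers, and Ltbp4 had log2 fold changes of 0.90 and 0.51 (edgeR adjusted p = 0.637 for each). Lrrc32, the relative of Nrros that holds latent TGF-beta on other cells, was at most 0.86 CPM and did not pass the filter.

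Of 16 other receptors and coreceptors, 15 were tested, with a median of 0.03 and 8 positive. The highest per length were Bmpr2, the type 2 receptor for bone morphogenetic proteins, at 17.9 CPM per kb, and the coreceptor endoglin (Eng) at 16.9 CPM per kb, both far under Tgfbr1. The smallest p-values were those of Neo1, a receptor of netrins and repulsive guidance molecules, with a log2 fold change of 0.63, Rgma, a ligand of Neo1, with 1.44, and Bmpr1b with 1.85 (edgeR adjusted p = 0.637 for each). Bmpr1b had 27.6, 12.9 and 16.2 CPM in GTF2ird1-/- replicates 5, 6 and 7, and 11.9, 2.45 and 0.970 CPM in wild type replicates 1, 3 and 4. Its log2 fold change was 3.52 without wild type replicate 1 (edgeR adjusted p = 0.0382).

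Intracellular lists lay close to the rest of the genes. Other SMADs and nuclear partners had a median of -0.08 (15 of 16 tested, 6 positive), regulators of the receptors and SMADs 0.00 (16 tested, 8 positive), and the kinase branch through Map3k7 -0.13 (13 tested, 4 positive). With library totals alone these medians were 0.07, 0.12 and 0.02, in step with the shift of all genes to 0.11. Ski and Skil, corepressors that bind the SMADs, were the highest per length in their list, at 61.2 and 53.1 CPM per kb, and the log2 fold change for Ski was -0.45 ± 0.23 (SE; edgeR adjusted p = 0.638). Smad9, a SMAD of the bone morphogenetic protein branch, had counts of 50, 12 and 47 in the libraries labelled GTF2ird1-/-, and 20, 5 and 7 in wild type (log2 fold change 1.39; edgeR adjusted p = 0.637). Pmepa1, a pathway target that sequesters receptor SMADs, had 154, 180 and 214 CPM in the libraries labelled GTF2ird1-/-, and 189, 318 and 270 CPM in wild type (log2 fold change -0.51 ± 0.22, SE; edgeR adjusted p = 0.637). In the kinase branch, Traf4, Tab1 and Traf6 had the smallest p-values, with log2 fold changes of 0.99, -0.28 and -0.17 (edgeR adjusted p = 0.637, 0.637 and 0.682).

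Genes known as transcriptional targets of SMADs had a median of 0.38 (17 of 18 tested, 12 positive; 0.28 to 0.89 when 1 library was left out, the higher value without wild type replicate 1). The collagen gene Col1a2 and the fibronectin gene Fn1, products of many mesenchymal cells, had log2 fold changes of 1.48 and 1.13 (edgeR adjusted p = 0.637 for each). Col1a2 had 14.1, 12.4 and 12.7 CPM in GTF2ird1-/- replicates 5, 6 and 7, and 9.26, 2.17 and 2.34 CPM in wild type replicates 1, 3 and 4. For Col1a2 the log2 fold change was 2.53 without wild type replicate 1 (edgeR adjusted p = 0.0243). Spsb1, an adaptor of a ubiquitin ligase, had a log2 fold change of -0.56 (edgeR adjusted p = 0.637). The immediate early gene Junb, the highest per length at 171 CPM per kb, had 442, 431 and 422 CPM in the libraries labelled GTF2ird1-/-, and 666, 307 and 94.4 CPM in wild type. Wild type libraries thus spanned both sides of the other group for Junb.

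Microglial genes that depend on TGF-beta in mice had a median of -0.27 over 20 tested, with 1 positive (Jun), and 0 passed. This one-sidedness depended on scaling: with libraries scaled to the microglia markers, 10 were positive and the median was -0.01. Leaving out 1 library gave medians of -0.42 to -0.15, with 6 positive without wild type replicate 1. The list shares members with the 14 microglia markers, whose median was -0.24. Fcrls, a microglial receptor, had the smallest p, with 1923, 2270 and 1543 CPM in GTF2ird1-/- replicates 5, 6 and 7, and 3346, 2961 and 1956 CPM in wild type replicates 1, 3 and 4 (log2 fold change -0.53 ± 0.26, SE; edgeR adjusted p = 0.637). Olfml3 and P2ry13 had log2 fold changes of -0.45 and -0.34 (edgeR adjusted p = 0.638 and 0.647). C1qa, a subunit of complement C1q, was among the highest per length, at 2038 CPM per kb.

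Genes that are raised in mouse brain macrophages lacking the pathway had a median of 0.16 over 19 tested of 20, with 13 positive and 0 passing. Leaving out 1 library moved this median between -0.15, without wild type replicate 4, and 0.75, without wild type replicate 1. Axl, a receptor for Gas6 and protein S that astrocytes and vessels can also express, had 49.5, 28.5 and 40.9 CPM in GTF2ird1-/- replicates 5, 6 and 7, and 29.0, 14.1 and 7.48 CPM in wild type replicates 1, 3 and 4 (log2 fold change 1.23 ± 0.46, SE; edgeR adjusted p = 0.637). Cd163 and Apoe had log2 fold changes of 0.67 and 0.55 (edgeR adjusted p = 0.675 and 0.683). The 7 markers of border macrophages, of which Cd163, Mrc1 and Ms4a7 are also in this list, summed to 670, 710 and 794 CPM in the libraries labelled GTF2ird1-/-, and to 1086, 324 and 414 CPM in wild type. The median of these markers was 0.24. It was 1.24 without wild type replicate 1, where 3 of 7 passed as higher, against 1.77% of all genes in that setting. It was -0.11 without wild type replicate 3 and -0.04 without wild type replicate 4. Their part in the list was not tested.

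**Figure D5:**
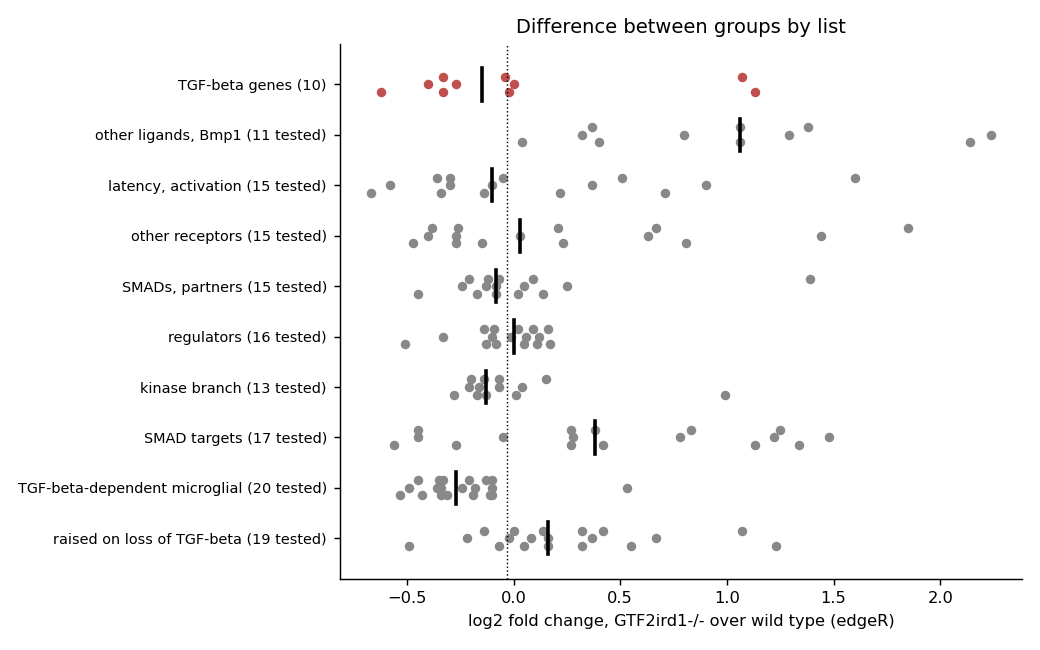
Log2 fold change of each tested gene, libraries labelled GTF2ird1-/- over wild type (edgeR), for the 10 TGF-beta genes (red) and 9 other lists (grey). Black bars are list medians, the dotted line is the median of all genes tested at -0.03, and vertical offsets only separate points. The list of other ligands and Bmp1 lies to the right, with a median of 1.06, and the microglial genes that depend on TGF-beta to the left, with a median of -0.27.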

How the data were processed

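The authors deposited unnormalized gene counts for each library. Trim Galore 0.60, STAR 2.7, HTSeq 1.31 and build mm10 are listed per the submitters' processing notes. For the strand setting and annotation release, nothing is stated in the sources used here. Lines naming no gene held between 42.3% and 72.1% of reads and stayed out of library totals, which were 13627501 to 30544144, so 3 counts equalled 0.0982 to 0.220 CPM. Of 53379 identifiers, 53274 matched GENCODE M21 (GRCm38), which also gave coordinates and merged exon lengths.

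Groups were compared in R 4.3.3 by edgeR 4.0.16's quasi-likelihood test (TMM, default expression filter, robust shrinkage, Benjamini-Hochberg over 17221 genes, two-sided, threshold 0.05). Ratios were compared by exact permutation in SciPy 1.17.1. On simulated counts for this comparison (17306 genes tested), the test recovered 100 of 100 genes changed 4-fold and 29 of 100 changed 2-fold, with 6 false calls. The simulation gave every gene the same dispersion, changed only genes with a mean count of at least 100 and held no outlying library. It therefore does not show that 4-fold changes are always found in the real libraries. Bmp7, for example, had a log2 fold change of 2.14 and an edgeR adjusted p of 0.637. No pair of libraries in a group agreed within sampling noise (chi-square per degree of freedom at least 49.8).

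The genes and lists were chosen with earlier results of these data known. Named genes were the 10 members, the 2 nearest profiles of those ranging over 2-fold, and in each list the 3 smallest p-values and the 2 highest length-scaled levels, or for marker lists the 2 highest CPM, except for results not reported here. Others named (Tgfb3, Lrrc32, genes called without wild type replicate 1, Ms4a1, Ms4a7, Gm26917, Lars2 and Jun) were chosen after their values were seen. Promoter sequences are from RefSeq (GRCm38.p6). Alternatives covered scaling, test (DESeq2 1.42.0, limma-voom 3.58.1), filters, gene sets and leaving out each library.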

Additional observations from a re-analysis of the deposited data

How the results depend on the processing

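No gene of the 10 passed the adjusted threshold under any of the 17 alternatives, and the smallest adjusted p was 0.0601, for Tgfb2 without wild type replicate 1. Tgfb1, Tgfb2, Tgfbr1, Tgfbr2, Smad3, Nrros and Itgb8 kept their direction in all 17, although Tgfbr1 ranged from -0.44 to -0.04, Tgfbr2 from -0.52 to -0.09, Smad3 from -0.57 to -0.17 and Nrros from -0.35 to -0.14. Smad2, Smad4 and Smad7, all within 0.04 of 0, changed sign. With library totals alone each had a log2 fold change of 0.13, and scaled to the microglia markers they had 0.19, 0.15 and 0.23, in settings that moved the median of all genes from -0.03 to 0.11 and 0.17. Smad4 was 0.01 with DESeq2 size factors, the DESeq2 test, limma-voom, no filter and the filter of 1 CPM, and Smad7 was 0.00 with limma-voom. When 1 library was left out they ranged from -0.07 to 0.04, -0.11 to 0.13 and -0.27 to 0.12. The ratio of Tgfbr1 to Tgfbr2 differed by -0.08 to 0.16 (log2) between groups, the share of Tgfb1 by -8.07 to -5.08 percentage points and the ratio of Smad7 to Smad3 by 0.25 to 0.57. With the longest transcript as length, the share of Tgfb1 differed by -3.81 percentage points.

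Over all genes, 1 was higher and 0 lower. The counts were 2 higher scaled to the microglia markers, 15 higher and 6 lower with DESeq2, 4 and 1 with no filter on low counts, and 0 higher with protein-coding genes alone. At an unadjusted p under 0.05 edgeR had 1249 genes. Leaving out 1 library gave between 1 and 306 higher and between 0 and 15 lower, the largest without wild type replicate 1, and between 0 and 7 genes of the pathway lists. The cause was not tested. No paired analysis was possible because the groups share no replicate number. With 3 libraries a group, 2-fold changes were often missed on simulated counts, so a p over the threshold does not show equal levels.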
